A study of Mus musculus with 12 samples.

Results

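The 10 genes described here encode C-type lectin receptors of myeloid cells: Clec4a1, Clec4a2, Clec4a3, Clec4d, Clec4e, Clec4n, Clec5a, Clec7a, Clec10a and Clec12a. They were taken from the raw count table by gene symbol, each symbol matched 1 of 56350 genes, and all 10 were among the 17475 genes with enough counts to be tested. RNA was measured by sequencing in bone marrow cells of 12 mice, 1 library per mouse. Every mouse, controls included, was Shp2E76K/+;LysM-Cre+ on a C57Bl/6J background, so each carried an activating allele of the Shp2 phosphatase gene Ptpn11 and a Cre recombinase driven from the lysozyme M locus in myeloid cells. The series presents them as a model of juvenile myelomonocytic leukaemia. The mice were 12 to 14 weeks old and of both sexes, which the labels describe as matched for each experiment; the sex of each mouse was not used here. There were 4 groups of 3: vehicle, the MEK inhibitor PD-901 (PD0325901, 5 mg/kg by mouth, 20 doses over 4 weeks), 5-azacitidine, a hypomethylating cytidine analogue (5 mg/kg into the peritoneum, 5 doses over 4 weeks), and the combination of both drugs at these doses. No group without the Shp2 allele was analysed here, so the values do not compare leukaemic with healthy marrow.

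C-type lectin receptors are surface proteins with which neutrophils, monocytes, macrophages and dendritic cells recognise sugars and lipids of fungi, mycobacteria and damaged cells. Activating members signal through immunoreceptor tyrosine motifs, either their own or those of the paired adaptors Fc receptor gamma chain (Fcer1g) and DAP12 (Tyrobp), to the kinase Syk and the adaptor Card9, and from there to NF-kB. Inhibitory members carry a cytoplasmic motif that recruits the phosphatases SHP-1 (Ptpn6) and SHP-2 (Ptpn11). MEK, the target of PD-901, acts in the Ras pathway downstream of Shp2.

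Total counts ran from 15356919 to 27148190 per library. Dusp6, an ERK phosphatase used here as a check on the pathway, fell with the combination (log2 change -2.66 ± 0.28 SE, edgeR adjusted p = 0.00208). With PD-901 alone its libraries overlapped with vehicle (log2 change 0.04, 95% interval -0.52 to 0.59, edgeR adjusted p = 0.999), and with 5-azacitidine the change was -0.22 (adjusted p = 0.732). Ptpn11 was at 120.4 to 163 CPM (the count of a gene scaled to library size) in all 12 libraries. Lyz2, the locus that carries the Cre, was lowest in vehicle replicates 1 and 2 and combination replicates 1 and 2 (44.9 to 172 CPM, against 699.6 to 4182 CPM in the 8 others). Transcripts of Xist, expressed in female cells, were above 100 CPM in 3 of 3 vehicle, 2 of 3 PD-901, 1 of 3 5-azacitidine and 0 of 3 combination libraries. The sex of the mice and the contrast of combination with vehicle therefore cannot be told apart by comparing those groups alone. In whole bone marrow, fewer cells of a type and less RNA per cell cannot be told apart either.

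Of the 10 genes, 9 lie on mouse chromosome 6 (build mm10). The 6 Clec4 genes fall within 368 kb, from 122921848 to 123289870. Clec4a1 (122921848 to 122934619, plus strand) and Clec4a3 (122952515 to 122969875, plus strand) are neighbours 17.9 kb apart with 0 protein-coding genes between them. Clec4a2 follows at 123106428 to 123143999 and Clec4n at 123229843 to 123247021. Clec4d (123262111 to 123275265, plus strand) and Clec4e (123281789 to 123289870, minus strand) are 6.5 kb apart and converge. Clec12a (129342691 to 129365303) and Clec7a (129461591 to 129472779) lie further along the chromosome, Clec5a lies at 40574894 to 40585821, and Clec10a is on chromosome 11 (70156197 to 70170834). The table lists Clec7a as a polymorphic pseudogene and the 9 others as protein-coding. No exon of the 10 overlapped an exon of another listed gene. Near-identical copies touched few of them: 9.02% of the 50-base words in Clec10a transcripts, most of them shared with Mgl2, and 6.69% of those in Clec4a2, most of them shared with Clec4a4, also occur in another gene, so values of these 2 carry that uncertainty. The share was 0.686% for Clec4n, 0.402% for Clec12a and 0 for the 6 others.

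The sequence before the start site is shown for the 4 genes that fell with the combination (Clec4a1, Clec4a3, Clec4d and Clec7a), and for Clec4e, the converging neighbour of Clec4d, and Clec5a, the member with the smallest change. Each run is the 250 bases upstream of a RefSeq start (GRCm38.p6), 5′ to 3′ on the gene's strand. The windows are chr6:122921598-122921847 (plus), chr6:122952265-122952514 (plus), chr6:123261857-123262106 (plus), chr6:129472780-129473029 (minus), chr6:123289872-123290121 (minus) and chr6:40585806-40586055 (minus). Capitals mark matches to GAGGAA, the core of sites of the myeloid factor PU.1, and to TTGCNNAA, a form of C/EBP sites, on either strand.
Clec4a1: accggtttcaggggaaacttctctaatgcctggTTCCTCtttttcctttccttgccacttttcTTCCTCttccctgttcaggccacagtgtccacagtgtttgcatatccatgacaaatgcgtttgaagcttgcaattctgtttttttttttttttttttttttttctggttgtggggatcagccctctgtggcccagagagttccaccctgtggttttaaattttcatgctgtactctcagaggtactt
Clec4a3: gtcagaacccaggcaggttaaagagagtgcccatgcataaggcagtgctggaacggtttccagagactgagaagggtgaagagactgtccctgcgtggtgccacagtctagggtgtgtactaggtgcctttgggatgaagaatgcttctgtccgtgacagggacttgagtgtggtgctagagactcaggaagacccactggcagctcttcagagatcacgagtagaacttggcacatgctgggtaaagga
Clec4d: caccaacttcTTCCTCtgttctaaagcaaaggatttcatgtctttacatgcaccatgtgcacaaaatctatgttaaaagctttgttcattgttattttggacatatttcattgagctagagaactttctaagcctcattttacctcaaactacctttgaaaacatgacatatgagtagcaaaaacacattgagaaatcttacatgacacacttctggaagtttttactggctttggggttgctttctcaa
Clec7a: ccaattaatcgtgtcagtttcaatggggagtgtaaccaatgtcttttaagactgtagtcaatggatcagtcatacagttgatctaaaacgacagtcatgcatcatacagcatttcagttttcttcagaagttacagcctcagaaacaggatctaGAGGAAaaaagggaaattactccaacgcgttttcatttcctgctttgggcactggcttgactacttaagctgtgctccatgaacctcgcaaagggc
Clec4e: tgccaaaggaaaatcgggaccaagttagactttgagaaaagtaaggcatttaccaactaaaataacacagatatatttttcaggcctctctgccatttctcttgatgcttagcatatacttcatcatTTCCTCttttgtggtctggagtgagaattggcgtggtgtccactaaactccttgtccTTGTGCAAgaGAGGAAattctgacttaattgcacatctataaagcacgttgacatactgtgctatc
Clec5a: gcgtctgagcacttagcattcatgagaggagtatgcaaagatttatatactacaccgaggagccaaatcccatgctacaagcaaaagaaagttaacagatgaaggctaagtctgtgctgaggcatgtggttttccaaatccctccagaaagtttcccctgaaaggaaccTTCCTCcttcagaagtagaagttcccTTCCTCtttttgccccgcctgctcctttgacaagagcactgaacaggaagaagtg
RefSeq windows were found for 8 of the 10 genes, with 10 starts, and not for Clec4n and Clec10a. GAGGAA occurred before 7 of the 8 genes, in 8 of the 10 windows, against 23.3% of 32851 windows of the same length over all genes. The pair of Clec7a windows starts 6 bases apart and holds the same match. The 2 windows without it were that of Clec4a2 and the first of 2 for Clec4a3, the one shown. TTGCNNAA occurred in 2 windows, those of Clec4e and Clec12a, against 9.56% of all windows. The 2 motifs overlapped in no window of the 10. GAGGAA was present both before genes that fell, such as Clec4d and Clec7a, and before Clec5a, which did not pass the test. A match of letters is a description and no evidence of binding.

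Per length of transcript, Clec12a had the highest level in vehicle marrow, at 75.2 ± 4.40 CPM per kilobase (mean ± SD, n = 3), and Clec4n the lowest, at 2.48 ± 1.15. Between them stood Clec4a2 at 63.9, Clec7a at 45.8, Clec4a1 at 43.4, Clec4d at 40.8, Clec5a at 39.3, Clec4a3 at 39.3, Clec10a at 21.0 and Clec4e at 13.9 CPM per kilobase. Every pair of neighbours in that order overlapped between libraries except Clec4e and Clec4n. With the combination the order of levels per kilobase was Clec12a (61.2), Clec4a2 (44.0), Clec5a (32.8), Clec7a (20.8), Clec4a1 (12.7), Clec4a3 (10.6), Clec4e (9.20), Clec4d (9.04), Clec10a (4.69) and Clec4n (1.14). There the 4 neighbouring pairs among the first 5 did not overlap, and Clec4a1 overlapped with Clec4a3 below it. In PD-901 marrow Clec4d had the highest mean of the 10, at 74.9 ± 21.3 CPM per kilobase, and with the combination it was eighth.

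**Figure D1:**
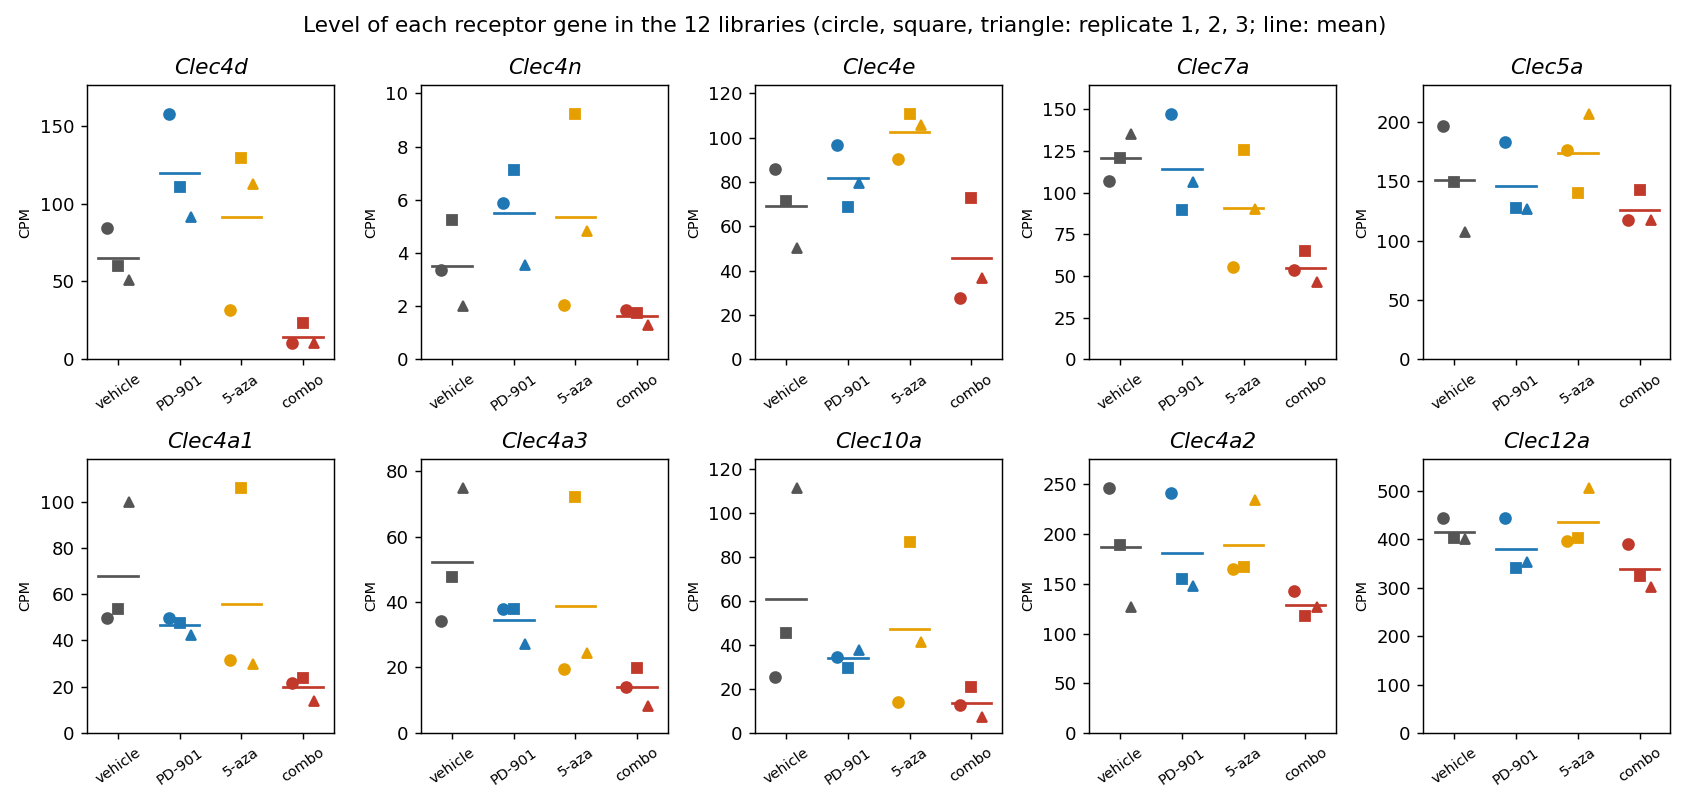
Level of each of the 10 genes in CPM (linear axis from 0, scaled separately per gene) in the 12 libraries; circles, squares and triangles are replicates 1, 2 and 3, and lines are group means. Clec4d lies between 10.1 and 22.9 CPM in the combination libraries and between 31.7 and 157 CPM in the 9 others.

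Clec4d, Clec4e and Clec4n encode the receptors that signal through the Fc receptor gamma chain. Clec4d is the macrophage C-type lectin MCL, also called Dectin-3, which pairs with Mincle in recognising mycobacterial cord factor. It stood at 84.4, 60.1 and 51.1 CPM in the vehicle libraries, at 157, 111 and 91.1 CPM with PD-901, at 31.7, 129 and 112 CPM with 5-azacitidine and at 10.3, 22.9 and 10.1 CPM with the combination. The combination libraries were the 3 lowest of the 12, the PD-901 libraries were all above vehicle, and 5-azacitidine replicate 1 was below vehicle while the 2 others were above. With the combination Clec4d fell 4.52-fold against vehicle (log2 change -2.18 ± 0.48 SE, edgeR adjusted p = 0.0125), a call lost without vehicle replicate 1, combination replicate 1 or combination replicate 3 (edgeR adjusted p = 0.0644, 0.0954 and 0.0867) and with no filter on low counts (0.0672). It also fell against PD-901 (-3.05 ± 0.49, edgeR adjusted p = 0.00509; 0.0519 without combination replicate 1) and against 5-azacitidine (-2.66 ± 0.49, adjusted p = 0.0325). The call against 5-azacitidine was lost in 5 of the 12 fits without 1 library, those leaving out PD-901 replicate 2, 5-azacitidine replicate 2 or 3, or combination replicate 1 or 3 (edgeR adjusted p from 0.0602 to 0.17), by limma-voom (0.0792), with no filter on low counts (0.0641) and in the fit of the compared groups alone (0.073). With Xist above 100 CPM as a covariate, Clec4d still passed against PD-901 and against 5-azacitidine (edgeR adjusted p = 0.0188 and 0.0468) but not against vehicle (0.163).

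Clec4e encodes Mincle, a receptor for mycobacterial glycolipid and for a protein released by dying cells. Its levels were 85.6, 71.6 and 50.3 CPM with vehicle, 96.7, 68.6 and 79.6 CPM with PD-901, 90.5, 110.5 and 106 CPM with 5-azacitidine and 27.5, 72.8 and 36.8 CPM with the combination. Combination replicate 2 stood within the vehicle range and the 2 other combination libraries below it, while all 3 5-azacitidine libraries were above vehicle. Clec4e did not pass edgeR's test in any of the comparisons of the design. Its log2 change was -0.60 ± 0.29 for the combination against vehicle (adjusted p = 0.201) and -1.16 ± 0.29 against 5-azacitidine (adjusted p = 0.0664). Without combination replicate 2 these were -1.11 and -1.67, and both passed (edgeR adjusted p = 0.00306 and 0.00416), and the change against 5-azacitidine also passed with a stricter filter on low counts and by limma-voom (adjusted p = 0.0445 and 0.0483). Against PD-901 the change was -0.84 ± 0.29 (edgeR adjusted p = 0.103). It passed without combination replicate 2 (edgeR adjusted p = 0.00204) and by DESeq2 (adjusted p = 0.0241). With no filter on low counts Clec4e passed against vehicle (edgeR adjusted p = 0.0189), PD-901 (0.000414) and 5-azacitidine. The difference between the changes of Clec4d and its neighbour Clec4e was not tested.

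Clec4n encodes Dectin-2, a receptor for fungal mannans, and was the least abundant of the 10, with 31 to 148 counts per library. It was at 3.35, 5.23 and 1.98 CPM with vehicle, 5.87, 7.14 and 3.53 CPM with PD-901, 2.04, 9.21 and 4.82 CPM with 5-azacitidine and 1.83, 1.73 and 1.30 CPM with the combination. The 3 combination libraries were the lowest of the 12. The change from PD-901 to the combination was -1.76 ± 0.51 on the log2 scale (edgeR adjusted p = 0.0495), which held in 3 of 12 fits without 1 library and not with limma-voom (adjusted p = 0.086). Against vehicle the change was -1.12 ± 0.51 (edgeR adjusted p = 0.164).

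Clec7a encodes Dectin-1, the receptor for fungal beta-glucan, which carries its own signalling motif and needs no paired adaptor. Levels were 107, 121 and 135 CPM with vehicle, 147, 89.7 and 106 CPM with PD-901, 55.4, 126 and 90.2 CPM with 5-azacitidine and 53.5, 65.0 and 46.2 CPM with the combination. The combination libraries lay below all vehicle and PD-901 libraries and overlapped with 5-azacitidine replicate 1. Clec7a fell 2.20-fold against vehicle (log2 change -1.14 ± 0.25, edgeR adjusted p = 0.0103), the lowest p of the 10 genes in that comparison. The call was lost without combination replicate 1 or 3 (edgeR adjusted p = 0.0574 and 0.0535). Against PD-901 Clec7a fell by 1.06 on the log2 scale (edgeR adjusted p = 0.0223), a call lost without PD-901 replicate 1 or combination replicates 1 or 3 (adjusted p = 0.123, 0.0983 and 0.106).

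Clec5a encodes MDL-1, which signals through DAP12 and DAP10 (Hcst) and is found on neutrophils and monocytes. It was at 196, 149.6 and 107 CPM with vehicle, 183, 127 and 126 CPM with PD-901, 176, 139.8 and 206 CPM with 5-azacitidine and 118, 142 and 118 CPM with the combination. The combination libraries fell inside the vehicle range. Its change with the combination was the smallest of the 10 (-0.26 on the log2 scale, 95% interval -0.71 to 0.19, edgeR adjusted p = 0.48).

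The Clec4a genes belong to the dendritic cell immunoreceptor (DCIR) family. Clec4a1 was at 49.5, 53.7 and 99.7 CPM with vehicle, 49.6, 47.6 and 42.3 CPM with PD-901, 31.6, 106 and 29.7 CPM with 5-azacitidine and 21.6, 23.9 and 14.0 CPM with the combination. Clec4a3 was at 34.1, 47.6 and 74.9 CPM with vehicle, 37.9, 37.9 and 27.3 CPM with PD-901, 19.5, 72.2 and 24.4 CPM with 5-azacitidine and 13.9, 19.9 and 8.28 CPM with the combination. Both genes were highest in vehicle replicate 3 and 5-azacitidine replicate 2, and the combination libraries were below all vehicle libraries. Against vehicle, Clec4a1 fell 3.42-fold (log2 change -1.77 ± 0.45, edgeR adjusted p = 0.0218). Clec4a3 fell 3.73-fold (-1.90 ± 0.48, edgeR adjusted p = 0.0215). The Clec4a1 call was lost without vehicle replicates 1 or 3 or any 1 of the combination libraries (edgeR adjusted p = 0.0551 to 0.116). The Clec4a3 call was lost without vehicle replicate 3 or combination replicates 1 or 3 (adjusted p = 0.0722 to 0.114). With no filter on low counts neither gene passed (edgeR adjusted p = 0.115 for Clec4a1 and 0.114 for Clec4a3). Neither passed against PD-901 (adjusted p = 0.12 and 0.124) or against 5-azacitidine (0.115 and 0.145).

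Clec4a2 encodes DCIR1, and Clec12a encodes a receptor for uric acid crystals; both are inhibitory. Clec4a2 was at 246, 189 and 126 CPM with vehicle, 241, 154 and 148 CPM with PD-901, 165, 167 and 234 CPM with 5-azacitidine and 142, 117 and 127 CPM with the combination. In contrast to Clec4a1 and Clec4a3, it had its lowest vehicle value in replicate 3, which the combination libraries overlapped. Its change against vehicle was -0.54 on the log2 scale (95% interval -1.04 to -0.04, edgeR adjusted p = 0.149). Clec12a, the most abundant of the 10, ran from 401 to 444 CPM with vehicle, 340.1 to 444 CPM with PD-901, 397 to 506 CPM with 5-azacitidine and 302 to 389.7 CPM with the combination. The combination libraries were all below vehicle, by a log2 change of -0.30 (95% interval -0.61 to 0.02, edgeR adjusted p = 0.213).

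Clec10a encodes the macrophage galactose-type lectin MGL1, found on macrophages and conventional dendritic cells. Its levels spread widely within groups: 25.3, 45.5 and 111 CPM with vehicle, 34.5, 29.6 and 37.7 CPM with PD-901, 14.0, 86.7 and 41.4 CPM with 5-azacitidine, and 12.6, 20.9 and 7.38 CPM with the combination. The combination libraries were below all vehicle and all PD-901 libraries. The change against vehicle was -2.17 ± 0.68 on the log2 scale, close to that of Clec4d, with edgeR adjusted p = 0.0581. It passed by DESeq2 (adjusted p = 0.0108), with a stricter filter on low counts (0.0277) and in the fit of vehicle and combination alone (0.0447).

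Against vehicle, the combination lowered 4 of the 10 genes and raised 0 by edgeR's quasi-likelihood test. Over all tested genes 13.8% passed in that comparison, 7.97% lower and 5.78% higher. All 10 changes were negative, with a median of -1.13 on the log2 scale, beside a median of 0.01 and 49.3% negative over all tested genes. In 7 of the 10 genes every combination library was below every vehicle library, as in 15.9% of all tested genes, and in 0 was every combination library above, as in 16.1%. Without combination replicate 1, or without combination replicate 3, 0 of the 10 passed, and without vehicle replicate 1 the number was 2. Without the 4 libraries lowest in Lyz2, which leaves 1 vehicle and 1 combination library that are assumed to vary like the others, 0 passed and the median was -1.08. With Xist above 100 CPM as a covariate 0 passed, and 0 genes of the whole table did. The changes in that fit were -2.08 for Clec4d, -1.15 for Clec4a3, -1.04 for Clec7a and -0.95 for Clec4a1 (edgeR adjusted p = 0.163, 0.365, 0.172 and 0.399).

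**Figure D2:**
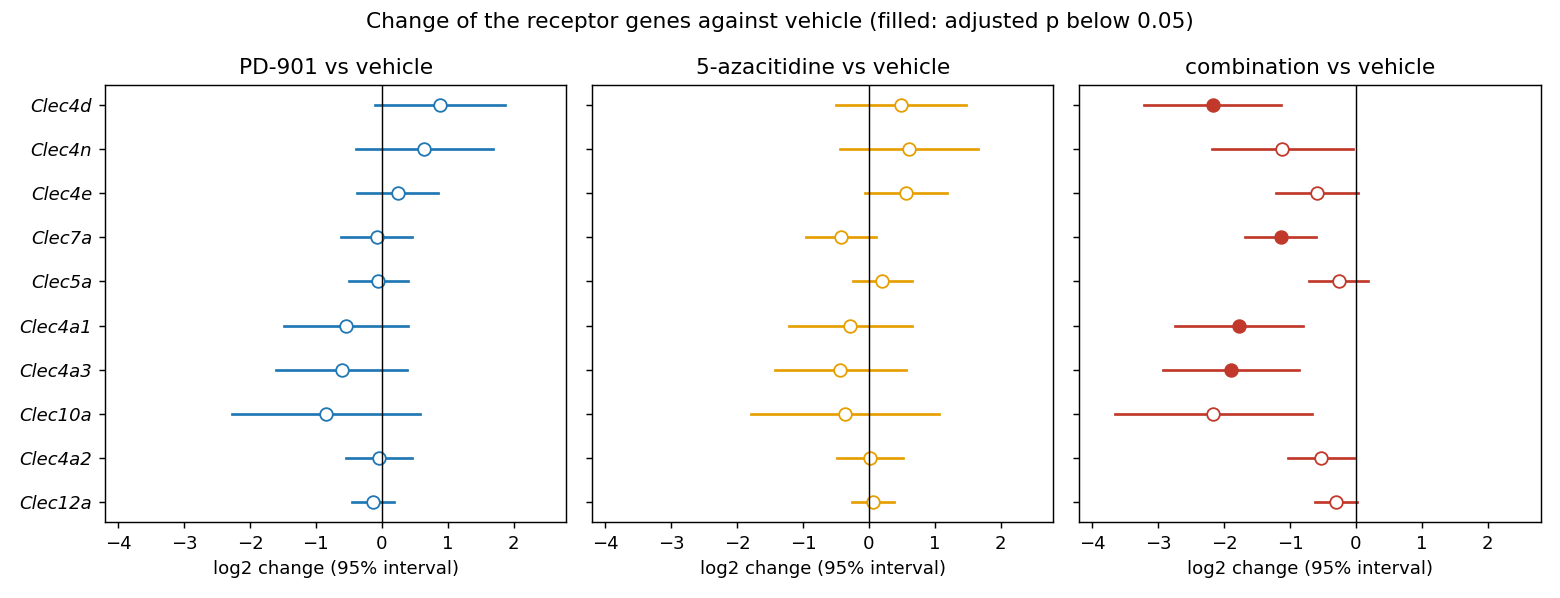
Log2 change of each gene against vehicle with its 95% interval from edgeR's fit, for PD-901, 5-azacitidine and the combination; filled points passed the adjusted threshold of 0.05. For the combination all 10 points lie left of 0, from -2.18 for Clec4d to -0.26 for Clec5a, and 4 are filled.

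Single drugs gave no call among the 10 genes. For PD-901 against vehicle, 0 of the 17475 genes passed edgeR's test, and 853 had an unadjusted p under 0.05, of which 0 were receptor genes. DESeq2 and limma-voom likewise called 0 receptor genes. The 10 changes after PD-901 ran from -0.84 (Clec10a) to 0.88 (Clec4d), with 7 negative and 3 positive. The positive ones were the 3 genes whose products use the gamma chain, Clec4d, Clec4e and Clec4n. These 3 are also consecutive on chromosome 6, with 0 protein-coding genes between Clec4n and Clec4d or between Clec4d and Clec4e. Shared adaptor and shared position cannot be told apart here. No receptor gene was lower in every PD-901 library than in any vehicle library, as 5.93% of all tested genes were. Clec4d was higher in every PD-901 library, as were 6.83% of all tested genes (95% interval of the log2 change -0.11 to 1.87, edgeR adjusted p = 0.96).

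For 5-azacitidine against vehicle 0 receptor genes passed by edgeR, DESeq2 or limma-voom, while 1 of 17475 genes (0.00572%) passed in the higher direction by edgeR. None of the 10 had an unadjusted p under 0.05 there, against 2673 of all tested genes. Changes ran from -0.43 (Clec4a3) to 0.61 (Clec4n). Of the 10 changes 6 were positive and 4 negative. The positive ones were 0.49 for Clec4d, 0.57 for Clec4e, 0.61 for Clec4n, 0.21 for Clec5a, 0.07 for Clec12a and 0.01 for Clec4a2. The comparisons with PD-901 and with 5-azacitidine share the vehicle libraries. Clec4e was higher in every 5-azacitidine library than in any vehicle library, as were 10.8% of all tested genes, and 0 receptor genes were lower in every library, as were 9.77%.

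Against PD-901, the combination lowered 3 of the 10 genes (Clec4d, Clec4n and Clec7a) and raised 0, where 6.82% of all tested genes passed, 5.12% lower and 1.69% higher. In 7 of the 10 all combination libraries were below all PD-901 libraries, against 15% of tested genes, and in 0 were they all above, against 12.7%. Against 5-azacitidine it lowered 1 of the 10, Clec4d, where 1.32% of all genes passed, 1.07% lower and 0.252% higher. Separation from the 5-azacitidine libraries was seen in 6 of the 10, against 9.54% of tested genes, and 0 were all above, against 9.1%. All 10 changes were negative in both comparisons, with medians of -1.15 and -1.31 beside 0.01 and 0.00 over all genes. A joint test of any difference among the 4 groups passed for Clec4d and Clec7a (edgeR adjusted p = 0.0174 and 0.0403), against 6.96% of all genes.

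Departure from additivity asks whether the combination differed from the sum of the single-drug changes on the log scale. All 10 estimates were negative and 0 passed by edgeR, as for all 17475 genes, while 3 had an unadjusted p under 0.05, against 1871 of all genes. These 3 were the gamma chain receptor genes, Clec4d at -3.54 ± 0.66 (edgeR adjusted p = 0.105), Clec4n at -2.37 ± 0.70 and Clec4e at -1.40 ± 0.41 (both adjusted p = 0.233). The term subtracts the single-drug changes, so it is not independent of the positive PD-901 changes of these 3 genes. DESeq2 called 2 of them, Clec4d and Clec4e, at adjusted p = 0.00119 and 0.0354. The estimate for Clec12a was -0.23 (95% interval -0.72 to 0.25 from edgeR).

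Likeness across libraries was measured by Pearson's r of log2 CPM over the 12 libraries, which share their treatment groups, so r is given as a description. Clec4a1 and Clec4a3, the adjacent pair, had r = 0.98, and r = 0.95 after each group's mean was removed. Clec10a, on another chromosome, had r = 0.94 with Clec4a3 and 0.91 with Clec4a1, and Clec7a had 0.90 with Clec4a3. Clec4a2 had r = 0.86 with Clec5a and 0.82 with Clec12a. Clec5a, Clec4a2 and Clec12a were less like Clec4a1, Clec4a3, Clec10a and Clec7a. Over these 12 pairs r ran from -0.01 for Clec5a with Clec10a to 0.51 for Clec7a with Clec12a, and with group means removed from -0.55 for Clec5a with Clec4a1 to 0.33 for Clec7a with Clec12a. Clec4a2 lies between its relatives Clec4a3 and Clec4n on the chromosome, yet had r = 0.26 with Clec4a3 and 0.23 with Clec4a1. Clec4d had r = 0.87 with Clec4n, 0.84 with Clec7a and 0.82 with Clec4e.

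**Figure D3:**
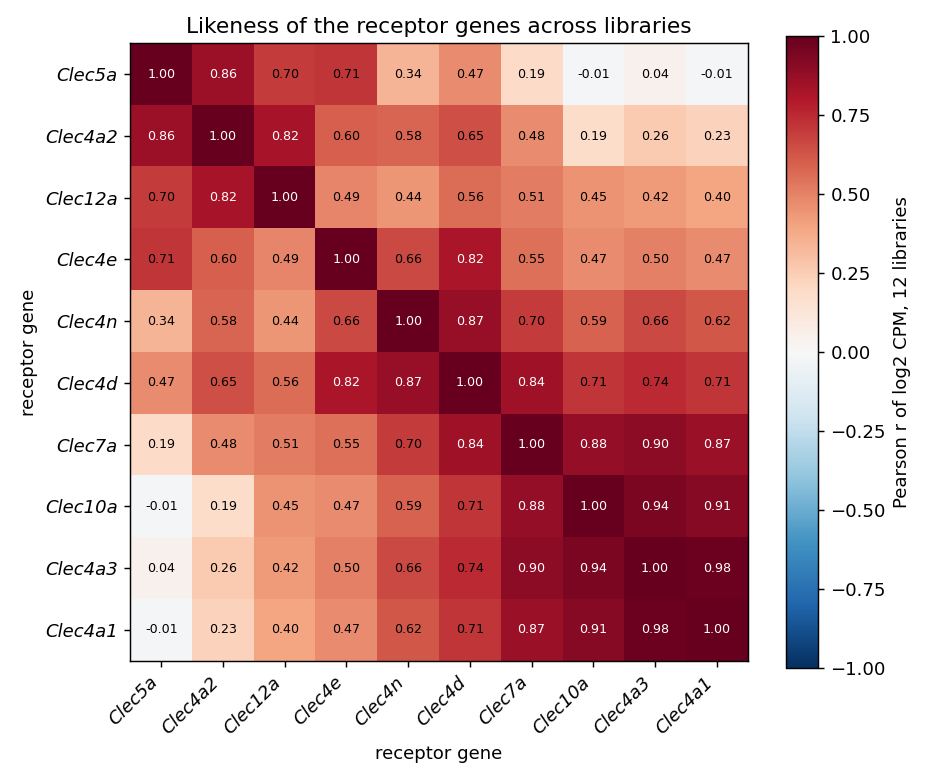
Pearson's r of log2 CPM over the 12 libraries for each pair of the 10 receptor genes (colour scale from -1 to 1). The block of Clec7a, Clec10a, Clec4a3 and Clec4a1 reaches r = 0.98 and the block of Clec5a, Clec4a2 and Clec12a reaches r = 0.86.

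Outside the 10, the genes most like each member were sought among 9885 named genes with a mean of at least 5 CPM. For Clec4a1 they were the nucleotide receptor gene P2ry6 (r = 0.97), the macrophage marker Adgre1 and the lysosomal protease gene Ctss. Ctss was also among the nearest 3 of Clec4a3 (r = 0.98) and of Clec10a, whose nearest was Cd68 (r = 0.97), another marker of macrophages. Clec5a was nearest to Anxa1 (r = 0.98), and Clec4a2 to Gadd45g and Mapk13 (r = 0.95 each). Clec4d was nearest to Pla2g7, Snx20 and the protease inhibitor gene Slpi (r = 0.98, 0.97 and 0.97). Clec7a was nearest to Dhx40, Parp10 and Apobec1, Clec4e to Tarm1, Clec4n to Ube2b and Clec12a to Capns1, with r from 0.93 to 0.98. Each of these is the best of many, so high values arise without any tie between the genes.

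Markers of the cells that carry these receptors moved with the combination too, and their part in the receptor changes was not tested. Over all tested genes 7.97% fell and 5.78% rose with the combination against vehicle. Of 14 tested mature neutrophil markers 9 fell and 0 rose (median log2 change -1.20), led by Retnlg, Fpr1, Mmp9 and Mmp8. Their summed level was 17160 to 34542 CPM with vehicle and 11813 to 15579 CPM with the combination. Of 12 monocyte markers 6 fell, among them Csf1r (-1.26) and Cx3cr1 (-1.89), with sums of 3608 to 4462 and 1710 to 3164 CPM. Monocyte sums were below vehicle with each single drug as well, at 2361 to 2881 CPM with PD-901 and 2118 to 2999 CPM with 5-azacitidine. There 0 of the 12 passed (medians -0.60 and -0.70, beside -0.98 with the combination). Of 12 dendritic cell markers 10 fell with the combination, with Itgax at -2.18 and Flt3 at -1.20. The dendritic cell sum was 1021, 1423 and 3267 CPM with vehicle and 467 to 512 CPM with the combination. Of 12 macrophage markers 4 fell, namely Adgre1 (-1.27), Axl, C1qb and C1qa, with sums of 663 to 1232 and 382 to 588 CPM. Of the listed markers tested, 0 had a mean of 0 in either group. Among the fits without 1 library, the counts of fallen markers were lowest, or tied for lowest, without combination replicate 1 (4 neutrophil, 3 monocyte, 4 dendritic cell and 0 macrophage). Without the 4 libraries lowest in Lyz2 they were 0, 8, 3 and 0, and with the Xist covariate all 4 counts were 0.

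Vehicle replicate 3 and 5-azacitidine replicate 2, the 2 libraries highest in Clec4a1, Clec4a3 and Clec10a, also had the highest dendritic cell sums of the 12, at 3267 and 2600 CPM. They had the highest macrophage sums as well, at 1232 and 1132 CPM. Vehicle replicate 3 had the lowest neutrophil sum of the 9 libraries outside the combination, 17160 CPM, and the lowest Clec4a2 and Clec5a of those 9. Markers of promyelocytes went the other way: of 9 primary granule genes 6 rose with the combination and 0 fell, among them Ctsg (0.97) and Elane (0.72). With 5-azacitidine alone all 9 changes were positive and 0 passed (median 0.76, beside 0.65 with the combination and 0.14 with PD-901). Of 12 erythroid markers 12 rose, with sums of 1222 to 1947 CPM with vehicle and 2136 to 6752 CPM with the combination. Of 10 B lineage markers 8 fell with the combination, and of 10 T and NK cell markers 1, Ncr1, fell and 0 rose. Of 10 basophil, mast cell and eosinophil markers 3 fell (Mcpt8, Gata2 and Ms4a2) and 1 rose (Siglecf), and of 8 secondary granule genes 1, Ncf1, fell. A list with 1 fallen gene is near the share over all tested genes, 7.97% lower in that comparison.

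Adaptors and enzymes that carry the receptors' signals fell in part with the combination. Of 27 genes of the adaptor and Syk-Card9 list 16 fell and 0 rose, where 7.97% of all tested genes fell and 5.78% rose. All 27 changes were negative, with a median of -0.70. Fcer1g, the gamma chain of Clec4d, Clec4e and Clec4n, was at 413, 387 and 393 CPM with vehicle and 225, 219 and 174 CPM with the combination, and fell by 0.95 on the log2 scale (edgeR adjusted p = 0.00318). Tyrobp, the DAP12 adaptor of Clec5a, was at 426, 339 and 364 CPM with vehicle and 186, 217 and 174 CPM with the combination (-0.97, edgeR adjusted p = 0.00364). For each of these adaptors the groups did not overlap. Hcst fell by 1.13 and Syk fell by 0.92 on the log2 scale (edgeR adjusted p = 0.00953 and 0.00484).

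Src family kinases that phosphorylate the receptors' motifs fell as well, Fgr by 1.22 and Lyn by 0.92, while Src itself had a change of -0.56 that did not pass. Downstream of Syk, Plcg2 fell by 0.81, Prkcd by 0.85 and the adaptor Lcp2 by 0.70. Blnk, an adaptor best known from B cells, fell by 1.88. The Card9 module did not pass: Card9 had a change of -0.31, Bcl10 of -0.39 and Malt1 of -0.30 (edgeR adjusted p = 0.292, 0.153 and 0.295). Of the NF-kB subunit genes Nfkb1 fell by 0.44, and Rela and Rel had changes of -0.31 and -0.46 that did not pass. In the single-drug comparisons 0 of the 27 passed, with medians of -0.08 for PD-901 and -0.29 for 5-azacitidine. Against PD-901 the combination lowered 10 of 27, and against 5-azacitidine 6 of 27, where 5.12% and 1.07% of all tested genes were lower. The count of 16 against vehicle was 9 without combination replicate 1, 6 without the 4 libraries lowest in Lyz2 and 0 with the Xist covariate.

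**Figure D4:**
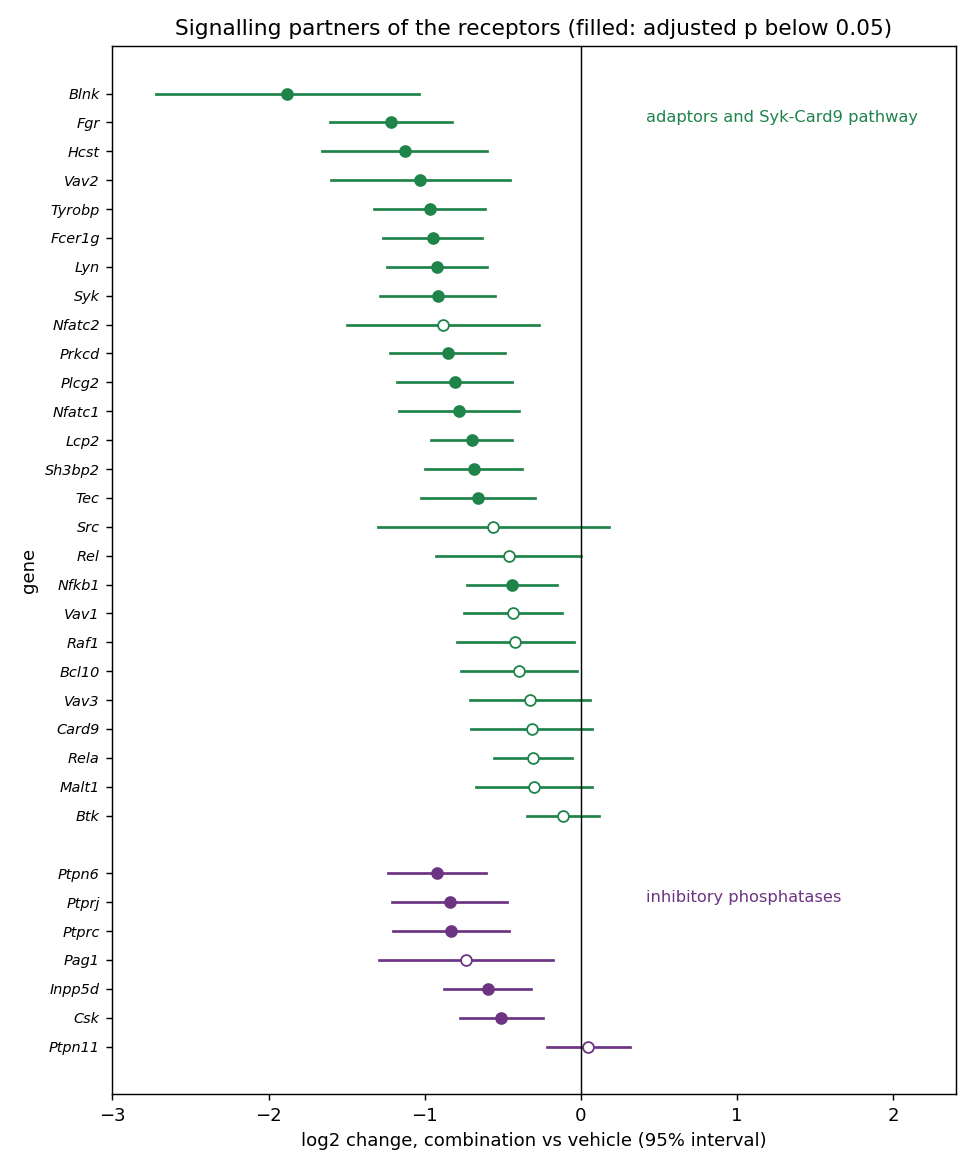
Log2 change from vehicle to the combination with its 95% interval for 26 of the 27 adaptor and Syk-Card9 genes (green) and 7 phosphatase and Src control genes (purple); filled points passed the adjusted threshold of 0.05. Of the green points 15 are filled and all lie left of 0, and Ptpn11, at 0.05, is the single point to the right of 0.

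On the inhibitory side, Ptpn6, which encodes SHP-1, was at 637 ± 44.7 CPM with vehicle and 336 ± 49.1 CPM with the combination (mean ± SD, n = 3; log2 change -0.92 ± 0.15, edgeR adjusted p = 0.00322). Ptpn11 had a change of 0.05 (95% interval -0.22 to 0.31 from edgeR). The lipid phosphatase gene Inpp5d fell by 0.60 on the log2 scale. Ptprc and Ptprj, which encode phosphatases that keep Src kinases active, fell by 0.83 and 0.84, and the Src inhibitor gene Csk fell by 0.51. In all 5 of these 7 genes fell, with a median of -0.73, and the number was 0 without the 4 libraries lowest in Lyz2, 0 with the Xist covariate, and 3 without combination replicate 1 or without combination replicate 3.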

How the data were processed

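What the authors deposited is a table of unnormalised read counts, with genes in rows and the 12 mice in columns. Per the submitters' processing notes, the tools were STAR 2.7.2a, Subread 1.6.5 with featureCounts, and bcl2fastq, on build mm10. Per the labels' protocols, RNA had an integrity number above 7 and a low-input library kit was used. Annotation release and strand setting: not given in the sources used here; the spans of the 10 genes equal GENCODE M21.

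Tests used edgeR 4.0.16 in R 4.3.3. filterByExpr (minimum count 10, minimum total 15) kept 17475 genes, and TMM factors were 0.929 to 1.07. A robust quasi-likelihood model with 1 mean per group was fitted to all 12 libraries (8 residual degrees of freedom). Tests were two-sided, with Benjamini-Hochberg adjustment over all tested genes and a threshold of 0.05. Standard errors and 95% intervals follow from the F statistic. The procedure was tested on simulated data. Log2 CPM for likeness used a prior count of 2.

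All 10 receptor genes and the genes of the adaptor and phosphatase lists could be named, of every other list up to 4 with the lowest p for combination against vehicle, and the 3 genes most like each receptor gene. Single values of some listed genes are not reported here; the counts over lists include them. Members, lists and motifs were chosen with earlier results of these data known. Alternatives were DESeq2 1.42.0, limma-voom (limma 3.58.1), other size factors and filters, fits of only the compared groups, and each library left out. Replicates are separate mice per the labels, and replicate numbers only name them. Libraries of a group were not duplicates: chi-square values per degree of freedom between them ran from 18.0 to 66.3.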

Additional observations from a re-analysis of the deposited data

How the results depend on the processing

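All 10 receptor genes kept a negative change for the combination against PD-901, against 5-azacitidine and in the additivity term under every alternative run. Against vehicle this held for 8 of them; when the 4 libraries lowest in Lyz2 were dropped, an alternative added once the data had been seen, Clec4a2 was at 0.00487 and Clec5a at 0.13. PD-901 and 5-azacitidine against vehicle gave 0 calls among the 10 in every alternative.

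Calls varied more than directions. Against vehicle the 4 calls became 0 without the 4 libraries lowest in Lyz2 and 0 with the Xist covariate (also added after seeing the data), and 0 to 5 over the 12 fits without 1 library. With no low-count filter 3 genes passed against vehicle, of which 1, Clec7a, was among the 4. Against PD-901 the 3 calls became 5 with no low-count filter, 6 with only the groups compared, 1 with the Xist covariate (Clec4d), and 0 to 5 without 1 library. The fit without the libraries lowest in Lyz2 leaves 1 combination library. For the 3 genes called against PD-901 with all 12 libraries, its changes were -3.57 for Clec4d, -2.08 for Clec4n and -1.32 for Clec7a. Against 5-azacitidine the single call, Clec4d, was lost with no low-count filter, where 4 other genes passed (Clec4a2, Clec4e, Clec4n and Clec7a). The count was 2 with the stricter filter, 4 by DESeq2, 0 with only the groups compared, and 0 to 3 without 1 library. The additivity term had 0 calls, 2 with no filter, 2 by DESeq2, 1 without the libraries lowest in Lyz2, and 0 to 1 without 1 library. The joint test had 2 calls, 4 with no filter, 6 by DESeq2, 1 without the libraries lowest in Lyz2, 0 with the Xist covariate, and 0 to 4 without 1 library. Fits that leave libraries out rest on fewer libraries and gave fewer calls in some cases and more in others. The cause of these differences was not tested.

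Of 1190 recomputed changes 28 turned sign, all of genes without a call (smallest edgeR adjusted p = 0.674). After PD-901, without the libraries lowest in Lyz2, Clec4a2 was at 0.53 and Clec5a at 0.45. After 5-azacitidine Clec4a2 was at -0.0012 with the stricter filter and at -0.0021 with only the groups compared. With the Xist covariate it was at -0.30, with Clec4a1 at 0.0804, Clec5a at -0.14, Clec10a at 0.0129 and Clec12a at -0.11. Over fits without 1 library the changes after PD-901 ran from -0.30 to 0.21 for Clec4a2, -0.25 to 0.185 for Clec5a and -0.295 to 0.0661 for Clec7a. After 5-azacitidine they ran from -1.15 to 0.11 for Clec4a1, -0.20 to 0.27 for Clec4a2, -1.12 to 0.42 for Clec10a, -0.0111 to 1.01 for Clec4n and -0.0601 to 0.13 for Clec12a. No paired analysis was possible because the labels give no replicate numbers shared between groups. Clec4n, at 31 to 148 counts per library, is the member most limited by depth.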

Other observations

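Of 30 other C-type lectin domain genes tested, 8 fell and 1 rose with the combination against vehicle by edgeR's quasi-likelihood test. The share over all tested genes was 7.97% lower and 5.78% higher. The median log2 change of the 30 was -0.77. Cd209a, a DC-SIGN relative found on monocyte-derived dendritic cells, stood between 17.5 and 50.2 CPM with vehicle and between 0.592 and 2.19 CPM with the combination (log2 change -4.21 ± 0.75, edgeR adjusted p = 0.00515). Clec2d, which encodes a ligand of an NK cell receptor, fell by 0.95 on the log2 scale. The gene that rose was Clec11a, which encodes a secreted growth factor for blood and bone progenitors, not a surface receptor. It went from 1.44 ± 0.43 to 10.7 ± 3.48 CPM (mean ± SD, n = 3; log2 change 2.88 ± 0.37, edgeR adjusted p = 0.00225), with every combination library above every vehicle library.

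Beside 7.97% lower and 5.78% higher over all tested genes, 10 of 19 tested transcription factor genes of myeloid cells fell and 0 rose with the combination. They included Irf8 (-1.14), Irf4 (-1.83), Nr4a1 (-2.28) and Tfeb (-1.09), and Spi1, which encodes PU.1 and was named after its values were seen (-0.78, edgeR adjusted p = 0.00744).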
